A study of Mus musculus with 4 samples.

Results

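The genes described here build, recruit or read methylation of lysine 9 of histone H3 (H3K9), and they were followed in mouse pachytene spermatocytes with and without BMH21. They were chosen by name as 10 of the 15733 protein-coding genes in the table: Setdb1, Atf7ip, Atf7ip2, Trim28, Ehmt1, Ehmt2, Suv39h2, Cbx1, Cbx3 and Cbx5. All 10 passed the filter on low counts, which kept 13793 genes. BMH21, a DNA intercalator, blocks transcription by RNA polymerase I. Single-cell suspensions of mouse testis were held ex vivo for 12 h with 2.5 µM BMH21 (2 libraries) or with the solvent DMSO (mock, 2 libraries), and pachytene cells were sorted from both by their Hoechst 33342 staining. The labels call the libraries biological replicates and give no strain or age, and do not say whether a suspension pooled several animals. Every library comes from cultured suspensions, so there is no uncultured group, and the DMSO libraries carry the time in culture as well.

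H3K9 methylation marks silent chromatin. SETDB1 writes it together with the partner proteins ATF7IP or ATF7IP2 and is brought to its sites by TRIM28 and other adaptors, EHMT1 and EHMT2 (GLP and G9a) and the SUV39H enzymes are further writers, and the HP1 proteins CBX1, CBX3 and CBX5 bind the mark. In pachytene spermatocytes the X and Y chromosomes lie largely unsynapsed in the sex body and are transcriptionally silenced, and SETDB1 and ATF7IP2 are known to be needed for H3K9 methylation of these chromosomes. SUV39H1 is encoded on the X chromosome, while its relative SUV39H2 is autosomal and best known from the testis.

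Stretches before a transcription start are shown for Setdb1, Atf7ip, Suv39h2 and the X-linked Suv39h1, which is not one of the genes chosen. Their mRNAs carry the comparisons below: Setdb1 and Atf7ip both fell, and the balance of the SUV39H pair shifted to Suv39h1. The stretches come from RefSeq windows on GRCm38.p6, are written 5′ to 3′ on the strand of the gene and end at the base before the start, or before the first exon of a protein-coding gene in that stretch. The positions are chr3:95357203-95357352 on the minus strand for Setdb1, chr6:136518701-136518801 on the plus strand for Atf7ip, chr2:3475032-3475136 on the minus strand for Suv39h2 and chrX:8074761-8074910 on the minus strand for Suv39h1. The Atf7ip stretch precedes an internal start, because the annotated gene begins at 136506167. Capitals mark matches, on either strand, to any of 9 short motifs that were searched: the GC box GGGCGG, the CCAAT box, the ATF/CREB core TGACGTCA, the ETS core CCGGAAG, the E-box CACGTG, the TATA box TATAAA, the A-MYB core CCGTTA, the ZFX core AGGCCT and the NRF1 core. No capital run in these stretches joins matches to different motifs.
Setdb1: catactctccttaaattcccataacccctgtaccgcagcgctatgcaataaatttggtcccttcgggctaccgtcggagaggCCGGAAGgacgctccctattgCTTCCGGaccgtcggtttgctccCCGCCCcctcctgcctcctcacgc
Atf7ip: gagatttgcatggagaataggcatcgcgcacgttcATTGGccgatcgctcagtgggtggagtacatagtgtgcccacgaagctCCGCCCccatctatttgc
Suv39h2: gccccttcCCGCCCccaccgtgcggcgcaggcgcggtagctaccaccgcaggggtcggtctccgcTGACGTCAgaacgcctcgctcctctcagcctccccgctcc
Suv39h1: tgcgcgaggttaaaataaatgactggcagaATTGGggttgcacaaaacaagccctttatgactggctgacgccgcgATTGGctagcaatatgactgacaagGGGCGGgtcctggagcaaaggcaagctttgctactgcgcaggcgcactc
The Setdb1 stretch held 2 matches to the ETS core CCGGAAG, a motif present in 8.86% of the 32851 windows of 300 bases in the RefSeq table. The Suv39h2 stretch held the ATF/CREB core TGACGTCA, present in 1.79% of windows. The Suv39h1 stretch held 2 CCAAT boxes, and CCAAT is present in 37.4% of windows. Another RefSeq window of Suv39h1, chrX:8074312-8074611, is not printed and held 0 CCAAT boxes. The GC box GGGCGG lay in all 4 printed stretches and is present in 35.7% of windows. The percentages count windows with any match in 300 bases. They are not shares for the shorter printed stretches or for 2 matches. These matches describe the letters only.

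Each library had between 30964370 and 41548269 counts, spread over 15398 to 15535 genes. X-linked genes took 0.0398% and 0.0405% of the counts in the mock libraries and 0.878% and 0.888% in the BMH21 libraries. The sorted cells carried the markers of their stage. The 8 pachytene markers summed to 3221 to 3234 CPM (counts scaled to library size, after TMM normalization) in mock and 3094 to 3124 CPM in BMH21, led by Hspa2, a testis chaperone gene, and Piwil1, the gene of a piRNA-binding protein. All 8 were called, beside 29.1% of all tested genes and 39.2% of those averaging 10 CPM or more. The 2 called higher were Sycp3 (log2 fold change 0.46) and Sycp1 (0.27). The 6 called lower included Hspa2 (-0.066) and Piwil1 (-0.16), so the sum does not show the rise of Sycp3 and Sycp1. DESeq2 called 2 of the 8 higher and 4 lower. Round spermatid markers, led by Prm2 and Tnp2, summed to 229.5 to 234 CPM in mock and 242 to 244 CPM in BMH21, with 0 of 8 called. At an unadjusted p under 0.05 edgeR gave 1 of them higher and 0 lower, and DESeq2 called 0. Spermatogonial markers, led by Id4 and Gfra1, summed to 54.6 to 55.7 CPM in mock and 48.2 to 49.4 CPM in BMH21. Of 5 tested genes 2 were called lower, beside 12.5% of all tested genes, and DESeq2 called 1 lower. The 2 were the weakly counted Zbtb16 (-0.95) and Kit (-0.58), whereas Id4 (-0.13) and Gfra1 (-0.042) were not called. The leptotene and zygotene markers, led by Meiob and Rad51ap2, summed to 8.51 to 9.66 CPM in mock and 8.53 to 8.57 CPM in BMH21. Among the 5 tested, edgeR called 1 lower, Meiob (-0.63), and DESeq2 called 0. The sums stayed under 10 CPM in every library for the Sertoli list (Amh and Vim), the Leydig list (Star and Insl3), the peritubular and endothelial list (Tagln and Pecam1) and the immune list (Csf1r and Ptprc). Of these, the Leydig sum was 9.13 to 9.60 CPM in mock and 6.55 to 7.29 CPM in BMH21. Of its 2 tested genes, Star was called lower by edgeR and DESeq2 (-0.50). Insl3, under 1 CPM in every library, was higher but not called (1.03). The part of these shifts in the results below was not tested, and in sorted bulk RNA fewer cells of a type and less RNA per cell cannot be told apart.

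In the mock libraries the writers and readers covered a wide range of levels. Per kb of annotated exon, Trim28 was the most abundant at 133 ± 4.14 CPM per kb (SD, n = 2 mock libraries), followed by Ehmt2 at 63.9 ± 1.22. Atf7ip2 (21.5 ± 1.28) and Setdb1 (20.1 ± 0.055) stood next to each other, then Cbx5 (14.1 ± 0.331), Cbx1 (12.3 ± 0.738), Atf7ip (6.94 ± 0.118) and Cbx3 (5.36 ± 0.303). Suv39h2 reached 1.10 ± 0.254 CPM per kb and Ehmt1 0.0571 ± 0.0642. Neighbours in this order did not overlap between the 2 mock libraries, but Atf7ip2 and Setdb1 lay close together, at 20.6 to 22.4 and 20.1 to 20.2. The order of Cbx5, Cbx1 and Atf7ip depends on the length used: the annotated exons of Atf7ip, for example, add up to 20726 bases and its longest transcript to 8059 bases. Over the longest transcripts Cbx1 stood at 22.2 ± 1.33 CPM per kb, Atf7ip at 17.8 ± 0.304 and Cbx5 at 14.4 ± 0.339, so that Cbx5 was the lowest of these and not the highest.

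**Figure D1:**
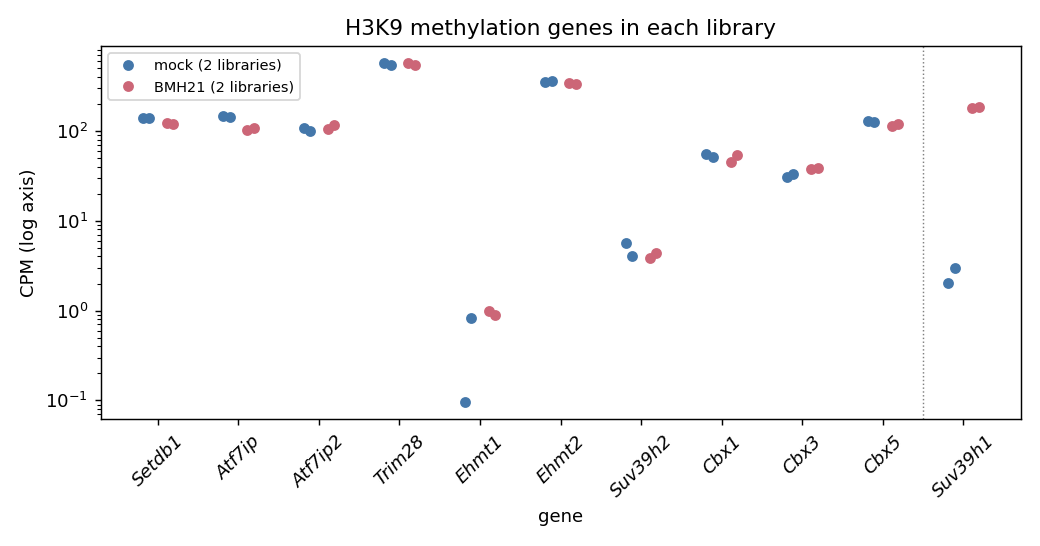
CPM (log axis) of the 10 genes and of the X-linked Suv39h1, right of the dotted line, with 1 point for each of 2 mock and 2 BMH21 libraries. Setdb1 and Atf7ip were lower in both BMH21 libraries, Cbx3 was higher, and Suv39h1 went from 2.03 and 2.94 CPM to 181 and 184 CPM.

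BMH21 was set against mock to see which of these mRNAs differ after the inhibitor. Setdb1 and its partner Atf7ip fell, the HP1 gene Cbx5 fell slightly, and Cbx3 rose. The remaining 6 were not called. A gene was called where the p of edgeR's quasi-likelihood test, adjusted by Benjamini-Hochberg over all 13793 genes tested, was under 0.05. In the same fit 29.1% of all tested genes were called, 16.5% higher and 12.5% lower, and 39.2% of the 7560 genes averaging 10 CPM or more. Thus 4 called of 10 is close to the background and is no result about the group. DESeq2 called 3 of the 10 (Setdb1, Atf7ip and Cbx3) beside 21.7% of all genes, and the authors' deposited table has the same 3 under 0.05 beside 18% of all genes. The libraries of the groups did not overlap for 6 of the 10, beside 60.9% of all tested genes. The median log2 fold change of the 10 was -0.075, against -0.00029 over all tested genes, and the median size of the change was 0.15 against 0.18.

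Setdb1 (ENSMUSG00000015697.15, chromosome 3, 95323525 to 95357202 on GRCm38), the gene of the main writer of H3K9 trimethylation on the sex chromosomes, stood at 138 CPM in both mock libraries and at 123 and 119.5 CPM in the BMH21 libraries. The groups did not overlap, and the spread within each was small beside the gap between them. Its log2 fold change was -0.19 ± 0.041 (SE), a fold of 0.879, with an edgeR adjusted p of 2.04e-04. It was called in each of the 11 alternative settings tried, with values from -0.23 to -0.17. A stretch of 249 bases of its annotated exons, 3.63% of their length, is shared with the predicted gene Gm37500 on the opposite strand and 75 bases with Cers2. The strand setting used in counting is not stated in the sources read here.

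Atf7ip (ENSMUSG00000030213.13, chromosome 6, 136506167 to 136610862) encodes the partner that stabilises SETDB1 in many cell types. It had 146 and 142 CPM in the mock libraries and 103 and 109 CPM in the BMH21 libraries. Both BMH21 libraries lay well below both mock libraries. The log2 fold change was -0.44 ± 0.042 (SE), a fold of 0.735, with an edgeR adjusted p of 6.73e-14, and the call held in each of the 11 alternative settings (-0.49 to -0.41). This was the smallest p among the 10 genes.

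Its relative Atf7ip2 (chromosome 16, 10192712 to 10251478) is the partner known for its role in meiotic cells. It stood at 108 and 99.6 CPM in mock and 106 and 116.5 CPM in BMH21, so the groups overlapped. The log2 fold change was 0.097 ± 0.047 (SE; edgeR adjusted p = 0.119). It was 0.024 with BMH21 replicate 2 left out, and 0.16, then called, with either mock replicate 1 or BMH21 replicate 1 left out. The ratio of the pair did not overlap between the groups. For each Atf7ip count there were 0.744 and 0.701 Atf7ip2 counts in the mock libraries and 1.03 and 1.07 in the BMH21 libraries, 1.46 times as many, a ratio taken within a library and so free of scaling between libraries. With 2 libraries against 2, an exact two-sided permutation test of such a ratio cannot give a p under 0.333. Per kb of exon, Atf7ip2 made up 75.5% ± 0.784 of the pair in mock and 81.8% ± 0.379 in BMH21 (SD over 2 libraries each). Over the longest transcripts the same shares were 67.7% and 75.3%.

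Trim28 (chromosome 7, 12999114 to 13031035) encodes the adaptor that KRAB zinc-finger proteins use to recruit SETDB1. It was at 565 and 540 CPM in mock and at 570 and 536 CPM in BMH21. The range of the mock libraries lay inside that of the BMH21 libraries. Its log2 fold change was 0.0013 ± 0.026 (SE), with an edgeR adjusted p of 0.981. Setdb1 counts per Trim28 count were 0.244 and 0.256 in the mock libraries against 0.216 and 0.223 in the BMH21 libraries.

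**Figure D2:**
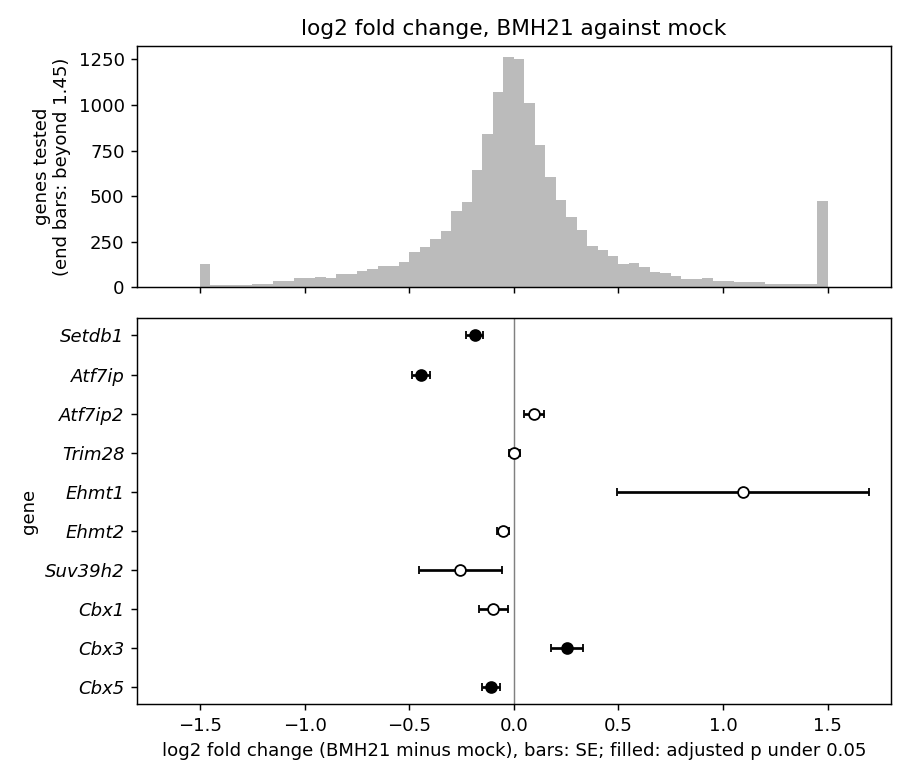
Log2 fold change of BMH21 against mock for all 13793 tested genes (upper panel, number of genes per bin, with values past the ends of the axis gathered in the end bars) and for the 10 genes (lower panel, bars show the SE and filled points an adjusted p under 0.05). Atf7ip (-0.44), Setdb1 (-0.19), Cbx3 (0.25) and Cbx5 (-0.11) were called, and most of the 10 lay within the bulk of all genes.

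The EHMT enzymes, which work as a pair to write H3K9 mono- and dimethylation, were counted very unequally. Ehmt2 (chromosome 17, 34898469 to 34914052) had 346 and 355 CPM in mock and 341 and 336 CPM in BMH21. All 4 libraries lay close together, and the log2 fold change of -0.051 ± 0.028 (SE) was not called (edgeR adjusted p = 0.186). It was called only under upper quartile scaling, at -0.097. Ehmt1 (chromosome 2, 24789928 to 24919614) had 4 and 26 counts in the mock libraries and 33 in each BMH21 library. As CPM of the unscaled library total, mock replicate 1 was at 0.0963 with an exact binomial 95% interval of 0.0262 to 0.247, and mock replicate 2 at 0.840 (0.549 to 1.23). The BMH21 libraries were at 0.990 (0.681 to 1.39) and 0.879 (0.605 to 1.23), and these intervals cover counting error only. Mock replicate 1 stood apart from the other 3 libraries, whose intervals overlapped. The log2 fold change of Ehmt1 was 1.10 ± 0.60 (SE; edgeR adjusted p = 0.181). It was 0.18 without mock replicate 1 and 3.26, then called, without mock replicate 2. Per kb of exon, Ehmt1 made up 0.0883% ± 0.0986 of the pair in mock and 0.188% ± 0.0129 in BMH21 (SD over 2 libraries each). Only 21 bases of its annotated exons, 0.259% of their length, are shared with another gene, Gm37139 on the same strand. The annotation used in counting may differ. The treatment of reads shared by overlapping genes is not stated in those sources either, so the level and share of Ehmt1 are given as counted and are uncertain. The part of the counting in its low count was not tested.

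Suv39h2 (chromosome 2, 3455815 to 3475031), the autosomal writer of H3K9 trimethylation at pericentromeric chromatin, was weakly expressed. It had 5.65 and 4.06 CPM in mock and 3.86 and 4.32 CPM in BMH21. The groups overlapped, the log2 fold change of -0.26 ± 0.20 (SE) was not called (edgeR adjusted p = 0.376), and it was 0.013 without mock replicate 1. Of its annotated exons 8.10% overlap Dclre1c on the opposite strand.

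The X-linked Suv39h1 (ENSMUSG00000039231.19, chromosome X, 8061171 to 8074760), which is not one of the 10, is shown beside it because it encodes the paired enzyme. It was counted 85 and 92 times in the mock libraries, 2.03 and 2.94 CPM, and 5992 and 6826 times in the BMH21 libraries, 181 and 184 CPM. Its log2 fold change was 6.23 ± 0.080 (SE; edgeR adjusted p = 1.89e-61). The antisense gene Gm14820 overlaps 767 bases, 14.6%, of its exons. Whether this was more than the shift of X-linked genes as a whole was not tested. Per kb of exon, Suv39h2 made up 69.6% ± 10.4 of the SUV39H pair in mock and 2.61% ± 0.167 in BMH21 (SD over 2 libraries each). In mock the 2 genes were thus near each other, at 1.10 and 0.472 CPM per kb, and in BMH21 Suv39h1 reached 34.6 ± 0.448 CPM per kb, above the 17.7 ± 0.372 of Setdb1. Over the longest transcripts the share of Suv39h2 was 58.3% in mock and 1.59% in BMH21. The mock libraries were then at 66.8% and 49.9%, so which gene led in mock replicate 2 depends on the length used.

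**Figure D3:**
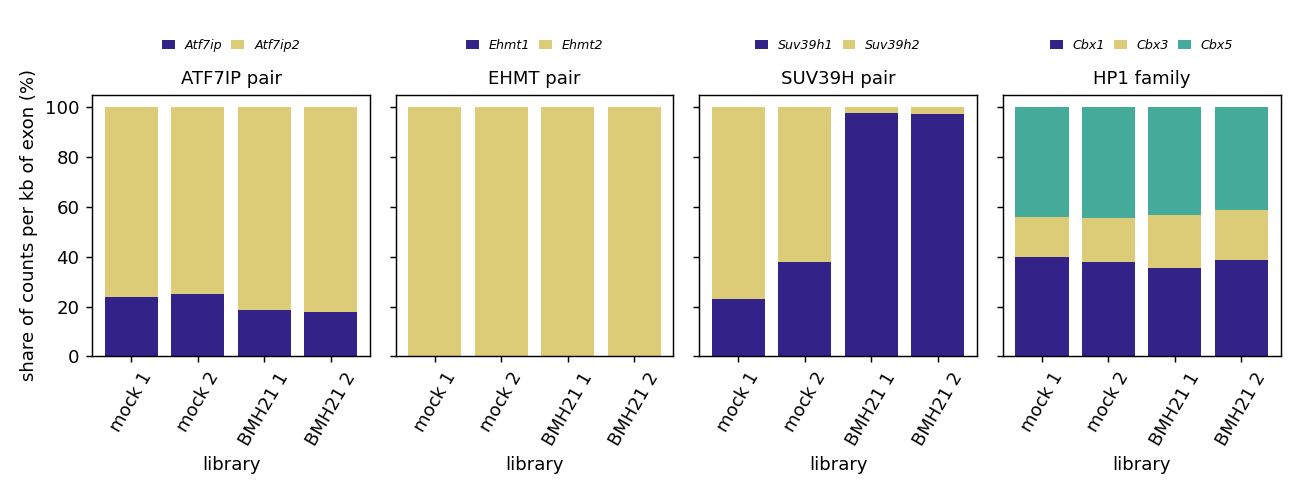
Share of each gene in its family (%), from counts per kb of annotated exon, in each of 2 mock and 2 BMH21 libraries. Atf7ip2 took 75.0% to 76.1% of its pair in mock and 81.6% to 82.1% in BMH21, Suv39h1 went from 23.1% and 37.7% to 97.5% and 97.3%, and Ehmt1 is too small a share to be seen.

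Of the HP1 readers, Cbx3 rose, Cbx5 fell and Cbx1 was not called. Cbx3 (chromosome 6, 51470360 to 51483704), the gene of HP1 gamma, had 30.8 and 33.4 CPM in mock and 37.6 and 38.9 CPM in BMH21. The groups did not overlap, and the log2 fold change was 0.25 ± 0.077 (SE; edgeR adjusted p = 0.00756). The call was lost without mock replicate 1 (0.20) or BMH21 replicate 2 (0.22). Cbx3 has processed pseudogenes in the mouse genome, and the handling of reads that map to several places is not stated, so its counts are uncertain.

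Cbx5 (chromosome 15, 103191544 to 103239816), the gene of HP1 alpha, had 129 and 125 CPM in mock and 114 and 121 CPM in BMH21. The groups did not overlap, but the gap between them was no wider than the spread within a group. Its log2 fold change was -0.11 ± 0.042 (SE; edgeR adjusted p = 0.0409), and the call did not hold in DESeq2 (-0.11), on autosomal genes alone (-0.11), with the replicate number as a block (-0.11), or with mock replicate 1 (-0.084), mock replicate 2 (-0.13) or BMH21 replicate 1 (-0.076) left out. Cbx1 (chromosome 11, 96789127 to 96808640), the gene of HP1 beta, had 55.0 and 50.5 CPM in mock and 44.9 and 53.7 CPM in BMH21. These ranges overlapped, and the log2 fold change of -0.098 ± 0.068 (SE) was not called (edgeR adjusted p = 0.311). It was 0.021 without BMH21 replicate 1 and -0.24, then called, without BMH21 replicate 2.

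Within the HP1 family, per kb of exon, the share of Cbx3 was 16.9% ± 1.36 for mock and 20.6% ± 0.879 for BMH21 (SD over 2 libraries each). Cbx1 held 38.8% ± 1.38 and 37.2% ± 2.18, and Cbx5 held 44.3% ± 0.0251 and 42.2% ± 1.30. The share of Cbx3 was higher in both BMH21 libraries than in both mock libraries. For each Cbx5 count there were 0.239 and 0.268 Cbx3 counts in mock and 0.328 and 0.323 in BMH21, 1.28 times as many. The ratio of Cbx1 to Cbx5 was 0.416 ± 0.0151 in mock and 0.419 ± 0.0374 in BMH21 (SD over 2 libraries each).

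The wider pathway was read from 7 lists of 67 genes, of which 65 were tested, 23 rose, 15 fell and 27 were not called, and DESeq2 called 18 higher and 12 lower. The share called over all tested genes was 29.1%, 16.5% higher and 12.5% lower, and 39.2% of genes averaging 10 CPM or more. Over the 62 autosomal genes among them the counts were 21 and 15. The median log2 fold change of the 65 was 0.051. Of the other H3K9 methyltransferases 1 of 4 tested rose, the X-linked Suv39h1. Setdb2 (0.051) and the zinc-finger genes Prdm2 (0.014) and Prdm16 (1.17, under 1 CPM in every library) were not called.

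The H3K9 demethylases, which remove the mark, had 7 of 11 members higher and 2 lower, beside 16.5% and 12.5% of all tested genes, with a median log2 fold change of 0.54. Phf2, which encodes a JmjC-domain protein of the PHF8 family, rose from 218 and 211 CPM to 311 and 313 CPM, by 0.54 ± 0.031 (SE) on the log2 scale (edgeR adjusted p = 8.48e-24). Kdm3b, for a demethylase of mono- and dimethylated H3K9, rose from 3.12 ± 0.162 to 7.13 ± 0.504 CPM (SD, n = 2; 1.20 on the log2 scale), and a non-coding gene on the opposite strand overlaps 24.6% of its exons. Jmjd1c, a relative of Kdm3b, fell from 178 and 187 to 142 and 159 CPM (-0.28). The X-linked Phf8 had 0.906 and 1.22 CPM in mock and 1.63 and 1.92 CPM in BMH21 and was not called (0.75, edgeR adjusted p = 0.130). By DESeq2, 6 of the list rose and 2 fell.

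Among the cofactors of SETDB1 and the HUSH complex, which silences repeats and retroelements through SETDB1, 2 of 8 rose and 1 fell, beside 29.1% of all tested genes called in either direction, with a median of 0.045. Resf1, a factor that supports SETDB1-dependent silencing, rose from 281 and 288 to 323 and 333 CPM (0.21). The HUSH gene Tasor rose from 167 and 169 to 194 and 193 CPM (0.20), with 12.9% of its exons overlapped by Ccdc66 on the opposite strand. Zfp57, which encodes a KRAB zinc-finger protein that brings TRIM28 to imprinted loci, fell from 53.2 and 50.7 to 40.9 and 43.2 CPM (-0.31).

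Of 6 partners of the EHMT enzymes 1 rose and 1 fell, also beside 29.1% of all tested genes, with a median of -0.00055. Zfp518b rose from 1.86 and 1.28 to 8.57 and 10.3 CPM, by 2.56 ± 0.20 (SE) on the log2 scale (edgeR adjusted p = 3.67e-17), and its relative Zfp518a fell from 90.3 and 87.4 to 82.4 and 78.6 CPM (-0.14). Both encode zinc-finger proteins that interact with G9a. Zfp518a was no longer called in DESeq2 (-0.14), nor when mock replicate 1 (-0.12) or BMH21 replicate 2 (-0.11) was left out.

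The list of HP1 partners and H4K20 methylation enzymes had 4 of 15 tested members higher and 7 lower, beside 16.5% and 12.5% over all tested genes, with a median of -0.12. DESeq2 called 3 higher and 5 lower. Hp1bp3, for a linker histone-like protein that binds HP1, rose from 11.7 and 14.0 to 29.2 and 28.3 CPM (1.17). Lbr, for the lamin B receptor that tethers heterochromatin to the inner nuclear membrane, rose from 58.6 and 58.1 to 78.9 and 80.6 CPM (0.45), with 9.24% of its exons overlapped by Dnah14 on the opposite strand. Uhrf1, which encodes a reader of H3K9 methylation and hemimethylated DNA, fell from 165 and 174 to 140 and 134 CPM (-0.30).

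The genes that signal silencing in the sex body, from the checkpoint kinase ATR to the scaffold MDC1, had 5 of 11 members higher and 2 lower, where 16.5% and 12.5% of tested genes overall were, with a median of 0.044. By DESeq2 the numbers were 4 and 2. The 2 called lower were Mdc1 (-0.17) and Brca1 (-0.54), and Atr was not called (0.035). Scml2, an X-linked gene for a germline Polycomb protein, rose from 1.74 and 2.24 to 170 and 172 CPM (6.45). Topbp1, for the activator of ATR, rose from 58.6 and 55.3 to 89.4 and 86.3 CPM (0.62), and Hormad1, for a protein of unsynapsed chromosome axes, from 160 and 159 to 198 and 203 CPM (0.33). Among the 62 autosomal genes tested in the 7 lists the change furthest from 0 was that of Zfp518b (2.56), against 6.23 for Suv39h1 and 6.45 for Scml2.

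**Figure D4:**
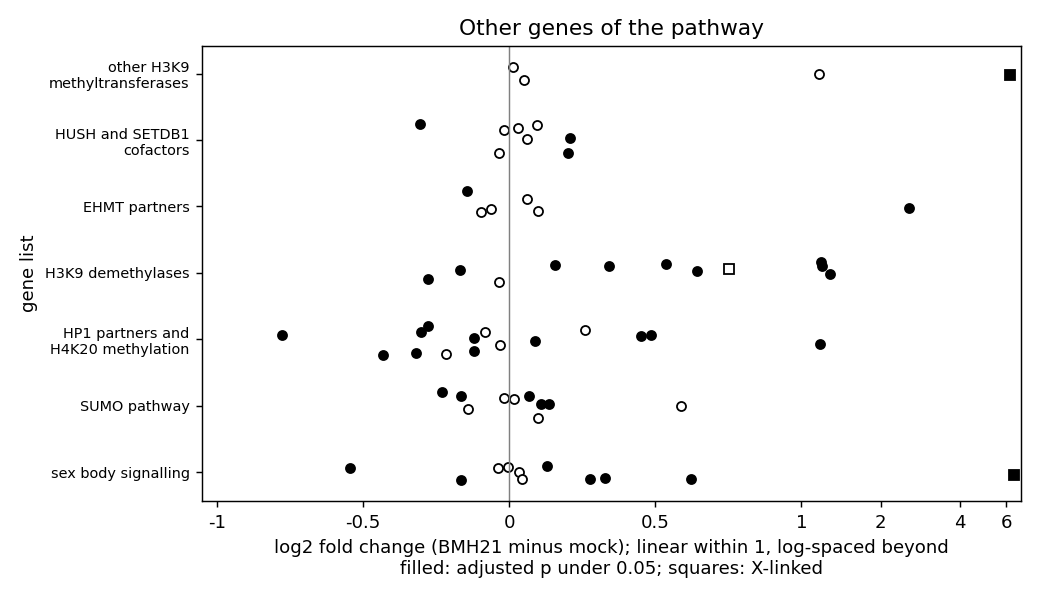
Log2 fold change of BMH21 against mock for each tested gene of the 7 lists (1 point per gene, filled where the adjusted p was under 0.05, squares for X-linked genes, axis linear within 1 and log-spaced beyond). Suv39h1 (6.23) and Scml2 (6.45) lie far right, 7 of 11 demethylases were called higher, and autosomal genes lie on both sides of 0.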

How the data were processed

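RNA was sequenced from sorted pachytene spermatocytes, 2 mock and 2 BMH21 libraries, with a kit for stranded mRNA libraries (labels' protocols). The submitters' processing notes name DESeq2, featureCounts, SAMtools, STAR and fastp, with mm10 as the build and no versions or settings. The authors deposited raw counts per protein-coding gene, from which every test here starts. The size-factor-normalized values (signal) in the table were made by the authors and were not tested. The authors' log2 fold changes and the authors' Wald score and p-values are DESeq2 output per the file headers; a rerun of DESeq2 1.42.0 differed from them by at most 2.83e-05 in log2 fold change.

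Counts were filtered with filterByExpr (minimum count 10), scaled by TMM and tested with edgeR 4.0.16 in R 4.3.3, with group alone, at a Benjamini-Hochberg adjusted p under 0.05. The SE is the log2 fold change divided by the square root of F. The common biological coefficient of variation was 4.09%. In simulated counts for 11037 genes, 27 of 50 genes changed by 1.25-fold and 47 of 50 changed by 1.5-fold were recovered, with 6 false calls. The simulation gave every gene the common dispersion, left out genes with a mean count under 50 and changed a far smaller share of genes than was called here. Its figures may therefore be too favourable for these data. Replicates were not copies of 1 library: their chi-square over degrees of freedom was 3.23 (mock) and 3.78 (BMH21). Libraries held 30964370 to 41548269 counts.

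Positions in the table matched GENCODE M21 (GRCm38) for 1 of 121 list genes, although the notes name mm10, so coordinates, exon lengths and overlaps were taken from GENCODE M21 by gene identifier. The version numbers of the identifiers printed above are those of the authors' table and differ from the GENCODE M21 versions that the coordinates belong to. All 10 genes had a RefSeq promoter window.

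The genes and lists were chosen with earlier results of these data known. The text names the 10 genes, up to 3 called genes with the smallest p per list, every X-linked list gene, the 2 most abundant genes of each marker list and the 3 genes nearest to Setdb1. Outside this rule it also gives the uncalled methyltransferase genes Setdb2, Prdm2 and Prdm16. The same holds for the called marker genes Sycp1, Sycp3, Zbtb16 and Kit, and for the sex body genes Atr, Mdc1 and Brca1. One listed gene, Atrx, and 8 of 53 marker genes were not analysed here. Alternatives were DESeq2, RLE and upper quartile scaling, autosomal genes alone, no filter, a minimum count of 50, the replicate number as a block, and each library left out.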

Additional observations from a re-analysis of the deposited data

How the results depend on the processing

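Over the 11 alternatives Setdb1 and Atf7ip kept their direction and their call. Over all genes, 1779 to 2293 were called higher and 1174 to 2480 lower. Upper quartile scaling gave 1805 higher and 2480 lower against 2282 and 1731, with a median shift of -0.045 in log2 fold change. Of the 10 genes, 2 to 4 were called lower, and 0 to 2 higher when a library was left out. Cbx5 lost its call in DESeq2 (-0.11; adjusted p = 0.120), on autosomal genes alone (-0.11) and with a replicate block (-0.11), and read -0.15 to -0.076 with a library left out. With a library left out, Atf7ip2 read 0.024 to 0.16 (called at 0.16 without mock replicate 1 or BMH21 replicate 1), Cbx3 0.20 to 0.31, Cbx1 -0.24 to 0.021, Suv39h2 -0.46 to 0.013, Ehmt1 0.18 to 3.26 and Trim28 -0.045 to 0.042. Ehmt1 did not pass the minimum count of 50 and so has no value there. Ehmt2 was called under upper quartile scaling (-0.097). Trim28 changed sign with RLE factors (-0.00034), upper quartile scaling (-0.044) and a minimum count of 50 (-0.0044), and was called in none of the 11 alternatives. Among the other pathway genes named by the rule, 198 of the results under an alternative kept direction and call. In 8, all of Zfp518a, Pias1 and Uba2, the call was lost. With the longest transcript as length, the shares in mock and BMH21 were 67.7% and 75.3% for Atf7ip2, 58.3% and 1.59% for Suv39h2, 46.6% and 43.9% for Cbx1, 23.1% and 27.8% for Cbx3, and 30.3% and 28.3% for Cbx5. The longest annotated transcript of Cbx3 has 1 exon, against 5 exons each for Cbx1 and Cbx5, so these HP1 shares compare unlike transcripts. Apart from the construction of each alternative, the cause of the changes under the alternatives was not tested.

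Same-numbered libraries hardly deviated together (r = 0.011 across 7560 genes, which are not independent replicates), so the numbers were not taken to pair them. The replicate block gave 2189 genes higher and 1595 lower, and of the 10 genes 1 higher (Cbx3, 0.25) and 2 lower (Setdb1 and Atf7ip). The mock libraries differed by more than counting error for Ehmt1 and Suv39h2: the exact 95% intervals of the replicates do not overlap, and for Suv39h2, on unscaled library totals, replicate 1 (5.704 CPM) lay above the interval of replicate 2 (3.42 to 4.88 CPM).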

Other observations

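The SUMO pathway, which modifies TRIM28 and through which SETDB1 partners are recruited, had 3 of 10 tested genes higher and 2 lower. The share called in either direction was 29.1% of all tested genes and 39.2% of those averaging 10 CPM or more. The median log2 fold change of the list was 0.042, and DESeq2 called 1 higher and 2 lower. Pias4, for a SUMO ligase, fell from 223 and 217 to 192 and 185 CPM (-0.23 ± 0.034 (SE), edgeR adjusted p = 1.29e-07), and Pias1, another ligase, from 92.8 and 99.8 to 84.9 and 86.8 CPM (-0.16), with its call lost without mock replicate 2 (-0.11). Uba2, for a subunit of the SUMO-activating enzyme, rose from 178 in both mock libraries to 195 and 189 CPM (0.11), with its call lost under upper quartile scaling (0.064) and when either mock library (0.11 each) or BMH21 replicate 1 (0.086) was left out.

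The tested genes nearest to Setdb1 in level over the 4 libraries, by Euclidean distance of log2(CPM + 1), were Pan2 (distance 0.0483), Vps52 (0.0564) and the mitochondrial mt-Nd4 (0.0608). Pan2 stood at 142 and 139 CPM in mock and 122 and 121 CPM in BMH21, beside 138 in both mock libraries and 123 and 119.5 CPM for Setdb1. The distance is a description over 4 libraries and carries no test.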
